A study of Rattus norvegicus with 12 samples.

Results

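The aromatase inhibitor anastrozole (AI) was compared with vehicle (VEH) in corpora lutea (CL) of pregnant Wistar rats on day 16 of pregnancy, across the 14509 genes read from Affymetrix Rat Gene 1.0 ST arrays. The comparison used 3 arrays of each group, chosen by their titles, which is 6 of the 12 arrays measured. Rats of the AI group had received 1 mg/kg of anastrozole by mouth each day from day 12, and their CL were taken after 96 h. VEH rats had received the vehicle over the same 96 h. The other 6 arrays came from 3 untreated rats on day 12 and from 3 rats given AI for 96 h together with 10 µg of estradiol (E2) per day under the skin (AI+E2). Each array held luteal RNA of 1 rat, so the spread between arrays includes that between animals. A value is a log2 signal after robust multi-array averaging (RMA), a difference is the AI mean minus the VEH mean on that log2 scale with its SE, and a difference of 1 is a fold change of 2. Adjusted p values are from limma with the Benjamini-Hochberg adjustment over all 14509 genes, and genes with adjusted p under 0.05 are said to have risen or fallen. In a piece of tissue, fewer cells of a type and less RNA per cell cannot be told apart.

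The rat CL of later pregnancy makes its own estradiol from androgens with aromatase, the product of Cyp19a1. Estradiol acts there through estrogen receptors in the luteal cells, beside prolactin-like hormones of the placenta, while the gland grows and secretes progesterone. Anastrozole blocks the aromatase enzyme itself, so the level of its mRNA is no check of the labels. Proteins bound for the cell surface, for secretion or for lysosomes enter the endoplasmic reticulum (ER) through the translocon, are folded and glycosylated there, and leave in vesicles with a COPII coat.

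Of the 14509 genes, 858 rose and 1602 fell, which is 5.91% and 11.0% of them, and 4018 had an unadjusted p under 0.05. Among genes with a fold change of at least 2, 69 rose (0.476%) and 87 fell (0.600%), and at 1.5-fold 180 rose (1.24%) and 349 fell (2.41%). All 3 AI arrays lay above all 3 VEH arrays for 14.3% of genes and below them for 17.2%. The median difference over all genes was 0.013. Rises made up 34.9% of the calls, and this share was 46.1% (1232 higher, 1441 lower) when the deposited values were quantile normalized once more. The calls lay among bright genes. Among the brightest 25% of genes by mean signal 11.3% rose and 25.8% fell, with a median difference of -0.07. Among the dimmest 25% of genes 1.21% rose and 1.07% fell, with a median of 0.031. After the further quantile normalization these 2 medians were 0.014 and 0.001. The counts of list members below are to be read beside the shares of all genes and of the brightest 25% given here. Array medians lay between 6.51 and 6.56, each AI and VEH array correlated more closely with its own group than with any array of another group, and the data hold no detection calls.

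**Figure D1:**
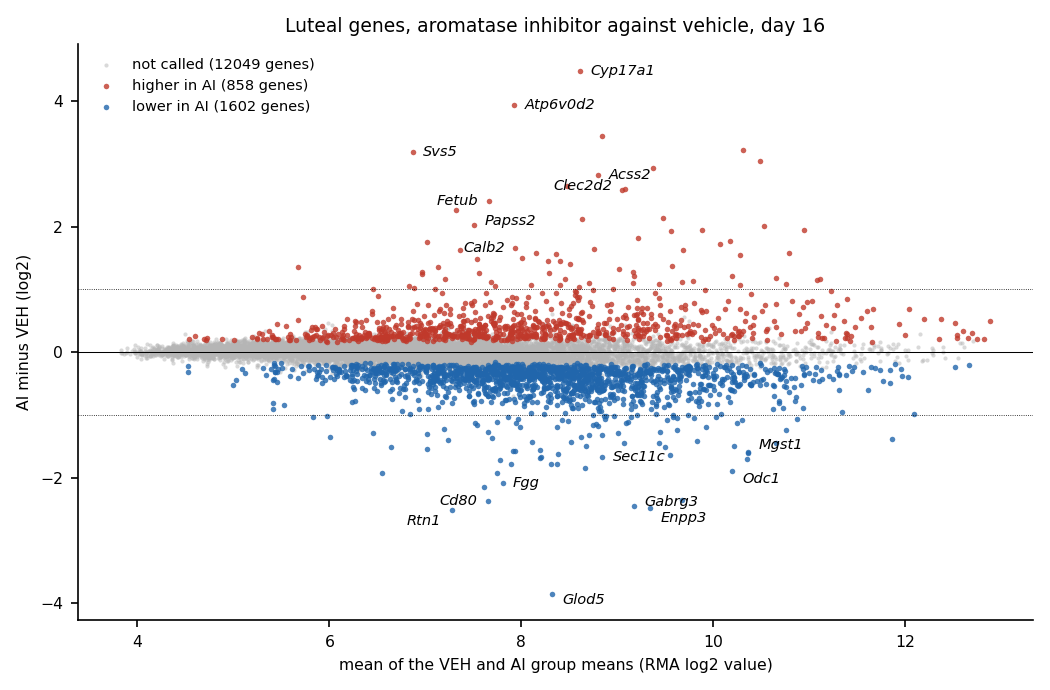
Each point is 1 of 14509 genes, with the mean of the VEH and AI group means (RMA log2 value) on the horizontal axis and the AI minus VEH difference (log2) on the vertical axis; red genes were called higher in AI (858), blue genes lower (1602), and dotted lines mark a fold change of 2. Calls are sparse among dim genes, and Cyp17a1 at 4.48 and Glod5 at -3.85 lie farthest from 0.

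Aromatase mRNA gave a high signal in both groups and was slightly lower in AI. Cyp19a1 read 12.08, 12.09 and 12.11 in VEH and 11.74, 11.86 and 11.85 in AI with no overlap, and its difference was -0.27 (SE 0.06, adjusted p = 0.00452). The estrogen receptor genes gave -0.05 for Esr1 (SE 0.102, adjusted p = 0.797) and -0.11 for Esr2 (SE 0.138, adjusted p = 0.656), both with overlapping arrays. A second probe set of Esr1 gave 0.11. Pgr, the progesterone receptor gene and an estrogen target in the uterus, gave -0.08 (adjusted p = 0.424).

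Beside genes of sterol and fatty acid synthesis, the largest rises were in genes of different functions. Cyp17a1, the enzyme that turns progestins into androgens, read 6.27, 6.46 and 6.39 in VEH and 10.86, 10.98 and 10.73 in AI. The groups were far apart, and the rise was 22.4-fold (4.48, SE 0.096, adjusted p = 3.21e-13). Atp6v0d2, part of the membrane sector of the vacuolar proton pump, read 6.08, 5.91 and 5.88 in VEH and 9.95, 9.90 and 9.85 in AI. This was a rise of 15.4-fold (3.94, SE 0.1, adjusted p = 1.3e-12). Svs5, a secretory protein of the seminal vesicle, read 5.18, 5.31 and 5.33 in VEH and 8.59, 8.81 and 8.00 in AI, and AI replicate 3 lay below the other two. It rose 9.16-fold (3.19, SE 0.144, adjusted p = 5.66e-10). Fetub, a secreted inhibitor of metalloproteinases that protects the egg coat, read 6.46, 6.51 and 6.42 in VEH and 9.12, 9.28 and 8.19 in AI. Its rise was 5.29-fold (2.40, SE 0.212, adjusted p = 1.01e-06), again with AI replicate 3 lowest. Cyp1b1, which hydroxylates estradiol, shared this order, with 6.10, 6.21 and 6.27 in VEH and 8.56, 8.71 and 8.08 in AI (2.26, adjusted p = 3.97e-09).

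Clec2d2, a lectin of the family that natural killer cell receptors recognise, read 7.20, 8.47 and 7.62 in VEH and 10.32, 10.38 and 10.34 in AI. The VEH arrays were the more scattered here, and the rise was 5.98-fold (2.58, SE 0.205, adjusted p = 3.49e-07). Clec2d2 has close relatives whose transcripts the probes may share, and so has Cd244l1 of the natural killer receptor family, which rose by 1.75 on the probe set used against 0.75 on another. Scnn1b, the beta subunit of the epithelial sodium channel, read 7.69, 7.62 and 7.41 in VEH and 9.65, 9.67 and 9.73 in AI. It rose 4.33-fold (2.11, SE 0.07, adjusted p = 2.51e-11). Papss2, which makes the sulfate donor of sulfation reactions, read 6.78, 6.44 and 6.28 in VEH and 8.52, 8.64 and 8.40 in AI (2.02, SE 0.103, adjusted p = 2.35e-09). Shisa4, which encodes a membrane protein, rose by 1.72 and Calb2, the calcium-binding protein calretinin, by 1.65. The other genes among the 25 largest rises were 10 enzymes of sterol synthesis, from Idi1 (3.45) to Sc5d (1.76), their regulator Insig1, and Acss2, Scd and Acly of fatty acid synthesis.

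**Figure D2:**
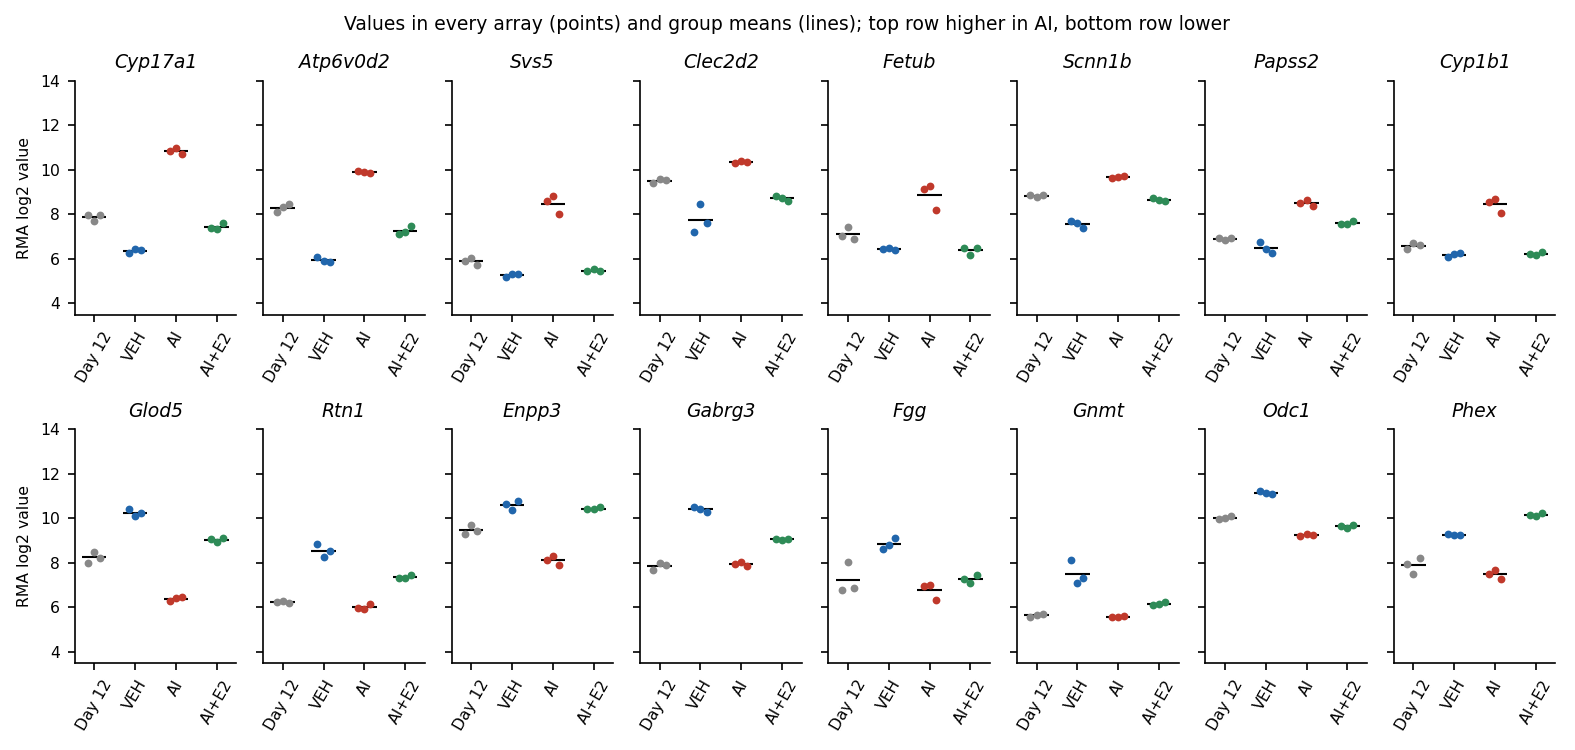
RMA log2 value (vertical axis) of 16 genes in each of the 12 arrays, with 3 points per group for day 12, VEH, AI and AI+E2 and a line at each group mean; the upper row holds genes that rose in AI and the lower row genes that fell. The 16 genes are from the largest rises and falls, which were named only where the 3 AI points lie apart from the 3 VEH points. The VEH points of Clec2d2 and Gnmt are the most scattered.

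The largest falls were also in genes of different functions. Glod5, which encodes a protein with a glyoxalase domain, read 10.41, 10.10 and 10.23 in VEH and 6.28, 6.42 and 6.47 in AI. It fell 14.5-fold (-3.85, SE 0.11, adjusted p = 4.33e-12). Rtn1, a reticulon that shapes ER membranes, read 8.82, 8.26 and 8.52 in VEH and 5.98, 5.91 and 6.15 in AI, which gave -2.52 (SE 0.107, adjusted p = 2.86e-10). Enpp3, an ectoenzyme that cleaves extracellular nucleotides, read 10.62, 10.36 and 10.77 in VEH and 8.13, 8.28 and 7.90 in AI (-2.48, SE 0.117, adjusted p = 1.05e-09). Gabrg3, a gamma subunit of the GABA-A receptor, read 10.52, 10.40 and 10.28 in VEH and 7.92, 8.04 and 7.86 in AI (-2.46, SE 0.082, adjusted p = 2.51e-11). The arrays of the groups did not overlap in these genes, which was a condition for naming them among the largest falls.

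Fgg, the gamma chain of fibrinogen, read 8.61, 8.80 and 9.13 in VEH and 6.95, 7.01 and 6.33 in AI, with AI replicate 3 lowest (-2.08, SE 0.263, adjusted p = 3.88e-05). Gnmt, which methylates glycine and so consumes the cell's methyl donor, read 8.14, 7.07 and 7.30 in VEH and 5.58, 5.56 and 5.60 in AI, and its VEH arrays were scattered while its AI arrays were even (-1.92, SE 0.178, adjusted p = 1.68e-06). Phex, a membrane endopeptidase known from phosphate balance, read 9.28, 9.25 and 9.26 in VEH and 7.51, 7.67 and 7.28 in AI (-1.78, SE 0.135, adjusted p = 2.06e-07). Further falls of this size were in C6 of the terminal complement pathway (-1.79), Rasgrp1, an activator of Ras (-1.78), Cdkn2c, an inhibitor of cyclin-dependent kinases (-1.73), Nnat, a small ER membrane protein (-1.69), Fmnl1, a formin that builds actin filaments (-1.67), and Tgm2, a transglutaminase that crosslinks proteins (-1.59). Of the 75 named genes that changed at least 2-fold, 0 lost the call when any 1 array was left out. The naming rule favours large differences, separate arrays and small p values, so this count is no check of the result.

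The day 12 and AI+E2 arrays place these levels, without a test here, since each further comparison would share the VEH or the AI arrays. Glod5 had a mean of 8.24 on day 12, 10.25 in VEH, 6.39 in AI and 9.04 in AI+E2. For Gabrg3 the day 12 mean was 7.86, close to the AI mean of 7.94, and the means of VEH and AI+E2 were 10.40 and 9.05. Cdkn2c and Kcnq1 had AI+E2 means of 6.93 and 6.91, beside AI means of 6.91 and 6.79, whereas Phex had 10.16 in AI+E2 and 7.49 in AI. Among the rises, Cyp1b1 and Fetub had AI+E2 means of 6.23 and 6.39 beside VEH means of 6.19 and 6.46, and Calb2 had 8.66 in AI+E2 beside 8.77 in AI.

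A broad group of genes that fell serves the ER and the first step of secretion. Of 28 ER chaperones and stress response genes tested, 2 rose and 16 fell (57.1%, against 11.0% of all genes and 25.8% of the brightest 25%), with a median difference of -0.28. Of the list, 23 genes lie in the brightest 25%. For 32 genes of the translocon, the signal peptidase and the oligosaccharyltransferase, which cut and glycosylate entering proteins, 0 rose and 22 fell (68.8%, median -0.5). Of 24 genes of the COPII coat and its cargo receptors, 0 rose and 17 fell (70.8%, median -0.44). In the brightest 25%, where 25.8% of genes fell, lie 29 of these 32 and 19 of these 24 genes. In these 2 lists limma gave 0 rises also at an unadjusted p under 0.05, and the methods' t-test gave 0 as well. By that t-test fewer members fell, with 9 of the chaperone list, 16 of the translocon list and 8 of the COPII list. The last 2 lists were drawn up after the values had been seen, and 2 genes, Ssr1 and Sec61b, stand in both the first and the second list. Together the 3 lists hold 82 genes, of which 53 fell, 2 rose and 62 had all 3 AI arrays below all 3 VEH arrays. With 1 array left out, 14 to 17 of the first list, 19 to 24 of the second and 15 to 17 of the third fell. After the further quantile normalization the falls numbered 15, 21 and 17.

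**Figure D3:**
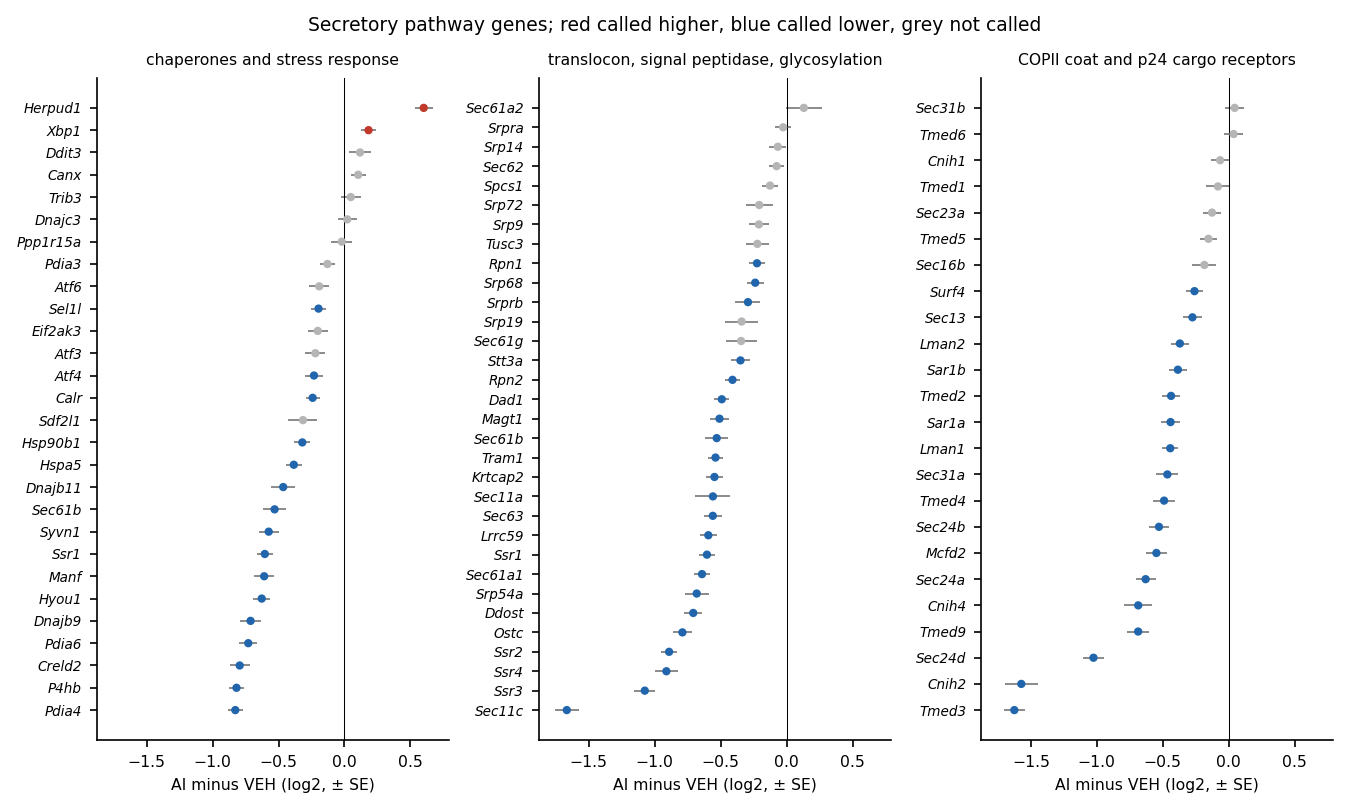
AI minus VEH difference (log2) with its SE for each tested gene of 3 lists, ER chaperones and stress response (28 genes), translocon, signal peptidase and glycosylation (32) and COPII coat with p24 cargo receptors (24); blue genes were called lower, red genes higher and grey genes were not called. Most points lie left of 0, from Sec11c at -1.67 to Herpud1 at 0.60.

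Promoters of the chaperone genes are shown because several carry the ER stress response element (ERSE), a site for factors of the unfolded protein response. The list was drawn up to hold stress response genes, so its share of this element is no result about AI. The element was searched as CCAAT and CCACG with 9 free bases between them, and the related ERSE-II as ATTGG and CCACG with 1 free base, on both strands of RefSeq promoters of the GRCr8 build, which run from 250 bases before to 50 after each gene's start. Of 23 promoters of the list, 7 hold an ERSE (30.4%) and 3 an ERSE-II (13.0%). The shares are 0.0765% and 0.0546% of all 27457 promoters, and 0.125% and 0.109% of promoters of genes tested. Among genes that fell they are 0.377% and 0.226%, and among genes that rose 0.287% and 0.287%. Of the 7 genes with an ERSE, 4 fell (Creld2, Hspa5, Hsp90b1 and Calr), Xbp1 rose and Canx and Dnajc3 were not called. Of the 3 with an ERSE-II, Hyou1 and Dnajb11 fell and Herpud1 rose. Of the other 13, 8 fell and 0 rose. Promoters of 3 genes that fell and of the 2 that rose follow, in capitals where an ERSE, an ERSE-II or the UPRE (TGACGTGG, in 0.637% of all promoters) matched. They lie at chr3:38452766-38453065 (plus strand, ERSE 43 bases before the start), chr7:121789134-121789433 (plus, ERSE on the opposite strand, 145 before), chr8:53602632-53602931 (plus, ERSE-II on the opposite strand 188 and 88 before, the first overlapping a UPRE), chr14:84604373-84604672 (plus, ERSE 65 before) and chr19:10614658-10614957 (minus, ERSE-II 124 before).
Hspa5: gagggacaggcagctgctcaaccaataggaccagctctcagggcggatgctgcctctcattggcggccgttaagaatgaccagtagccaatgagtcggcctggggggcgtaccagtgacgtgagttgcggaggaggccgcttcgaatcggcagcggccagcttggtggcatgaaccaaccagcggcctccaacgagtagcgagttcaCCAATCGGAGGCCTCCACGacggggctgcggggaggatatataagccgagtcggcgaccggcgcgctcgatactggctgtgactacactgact
Creld2: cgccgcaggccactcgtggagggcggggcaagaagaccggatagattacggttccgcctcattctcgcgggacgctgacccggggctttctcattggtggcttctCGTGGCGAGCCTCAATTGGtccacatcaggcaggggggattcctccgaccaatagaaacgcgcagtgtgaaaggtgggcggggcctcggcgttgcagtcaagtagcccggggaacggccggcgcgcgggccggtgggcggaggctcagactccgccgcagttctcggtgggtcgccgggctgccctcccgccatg
Hyou1: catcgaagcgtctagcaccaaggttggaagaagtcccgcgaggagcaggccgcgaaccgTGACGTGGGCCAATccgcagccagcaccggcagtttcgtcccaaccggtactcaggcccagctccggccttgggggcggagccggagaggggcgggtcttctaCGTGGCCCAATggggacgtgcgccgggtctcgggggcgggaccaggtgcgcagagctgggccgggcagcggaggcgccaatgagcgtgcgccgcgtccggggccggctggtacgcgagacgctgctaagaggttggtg
Xbp1: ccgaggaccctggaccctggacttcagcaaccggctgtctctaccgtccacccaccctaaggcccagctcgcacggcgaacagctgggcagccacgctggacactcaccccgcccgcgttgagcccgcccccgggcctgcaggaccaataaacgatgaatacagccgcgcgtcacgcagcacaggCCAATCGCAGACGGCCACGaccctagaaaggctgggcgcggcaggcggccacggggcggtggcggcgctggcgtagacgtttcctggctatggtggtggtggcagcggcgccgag
Herpud1: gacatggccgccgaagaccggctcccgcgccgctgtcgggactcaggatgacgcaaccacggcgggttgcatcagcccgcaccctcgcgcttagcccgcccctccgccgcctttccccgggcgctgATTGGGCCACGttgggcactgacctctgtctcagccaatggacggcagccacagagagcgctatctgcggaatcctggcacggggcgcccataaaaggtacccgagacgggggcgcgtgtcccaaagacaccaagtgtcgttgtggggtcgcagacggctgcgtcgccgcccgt

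The genes beside these sequences went both ways. Hspa5, the main ER chaperone BiP, read 12.12, 12.26 and 12.09 in VEH and 11.74, 11.80 and 11.79 in AI (-0.38, SE 0.0612, adjusted p = 0.000353). Creld2, an ER protein with disulfide isomerase activity, read 8.39, 8.30 and 8.31 in VEH and 7.54, 7.71 and 7.36 in AI (-0.79, SE 0.077, adjusted p = 2.87e-06). Hyou1, a nucleotide exchange factor for BiP, read 9.97, 9.89 and 9.82 in VEH and 9.30, 9.32 and 9.19 in AI (-0.63, adjusted p = 4.19e-06). All 3 had every AI array below every VEH array. Herpud1, which takes part in degrading misfolded ER proteins, read 9.06, 9.02 and 8.83 in VEH and 9.50, 9.62 and 9.59 in AI and rose (0.60, SE 0.0694, adjusted p = 1.65e-05). Xbp1, a transcription factor of the unfolded protein response, had 0.18 (adjusted p = 0.04), close to the threshold, and the list then held 1 rise in place of 2 without AI replicate 1 or 3, without VEH replicate 2 or 3, and under both other scalings. Ddit3, Trib3 and Ppp1r15a, which rise in strong ER stress, had differences of 0.12, 0.05 and -0.02 and were not called. Apart from Creld2, the genes of this paragraph and those of the promoter search were named for the promoter search, after their values had been seen.

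In the chaperone list the largest falls were in disulfide isomerases. Pdia4 read 10.00, 9.95 and 9.87 in VEH and 9.14, 9.13 and 9.06 in AI (-0.83, SE 0.059, adjusted p = 1.03e-07), P4hb gave -0.82 and Pdia6 -0.73. The FK506-binding family of prolyl isomerases is a list added after values had been seen. Of its 14 members tested, 6 fell (42.9%, against 11.0% of all genes), and the list's median was -0.06. Of the 14, 8 lie among the brightest genes by mean signal, of which 25.8% fell. The methods' t-test gave 3 falls and 1 rise. The 6 falls by limma were -1.19 for Fkbp14, -1.16 for Fkbp7, -1.07 for Fkbp10, -0.75 for Fkbp11, -0.78 for Fkbp1a and -0.33 for Fkbp8. The first 4 of these proteins reside in the ER. The 2 members that rose were Fkbp5, a cytosolic cochaperone of steroid receptors (0.98, adjusted p = 5.84e-07), and Fkbpl (0.29). At the translocon, Sec11c, a catalytic subunit of the signal peptidase, read 9.83, 9.55 and 9.65 in VEH and 7.88, 8.18 and 7.97 in AI (-1.67, SE 0.091, adjusted p = 4.79e-09). The 4 subunits of the translocon-associated protein complex fell together, with -0.60 for Ssr1, -0.89 for Ssr2, -1.08 for Ssr3 and -0.91 for Ssr4, and Sec61a1, the channel itself, gave -0.64. Of the glycosylating complex, Ostc gave -0.79, Ddost -0.71, Dad1 -0.49 and Stt3a -0.35.

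Among export genes, Tmed3, a p24 cargo receptor, read 9.22, 9.19 and 9.17 in VEH and 7.68, 7.63 and 7.40 in AI (-1.63, SE 0.079, adjusted p = 1.45e-09). Cnih2, a cornichon cargo receptor, read 8.64, 8.56 and 8.97 in VEH and 7.14, 7.37 and 6.95 in AI (-1.57, SE 0.127, adjusted p = 3.99e-07). Sec24d, a coat protein that selects cargo, gave -1.03, and the related Sec24a and Sec24b gave -0.63 and -0.53. Enzymes that charge transfer RNAs with amino acids, from a list also added later, had 7 falls (4 without AI replicate 3 or VEH replicate 1) and 0 rises among 19 genes (0 at an unadjusted p under 0.05 and 0 by the methods' t-test), led by Gars1 (-1.13) and Lars1 (-0.84). Ribosomal protein genes lay near 0. Of 38 tested, 36 of them in the brightest 25%, 1 rose (Rpl19, lost without any 1 array) and 0 fell (2 at an unadjusted p under 0.05 and 1 by the methods' t-test, 1 without VEH replicate 2), with differences between -0.25 and 0.2. Cytosolic and mitochondrial heat shock proteins had 7 rises among 19 (4 without AI replicate 2 or VEH replicate 1) and 0 falls (3 at an unadjusted p under 0.05 and 0 by the methods' t-test, 1 without VEH replicate 2 or VEH replicate 3), with Hspd1 at 0.71 and its partner Hspe1 at 0.46, which fold mitochondrial proteins.

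**Figure D4:**
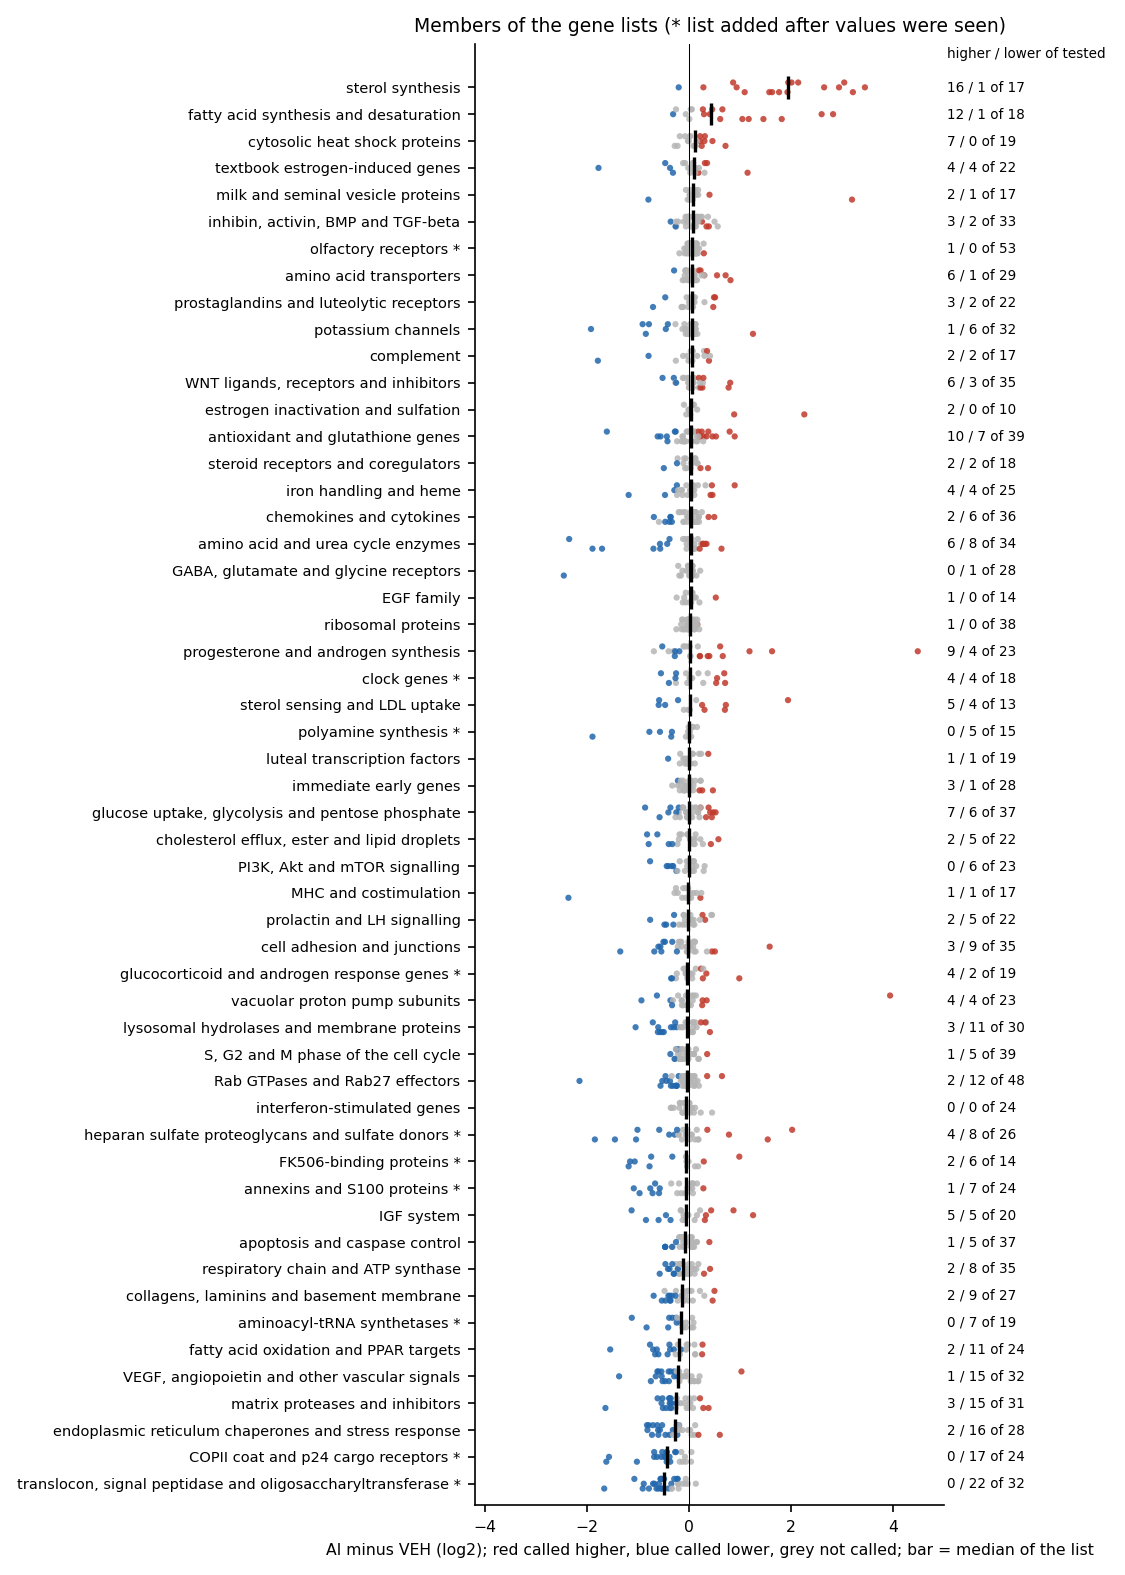
AI minus VEH difference (log2, horizontal axis) of every tested member of 53 gene lists, ordered by their median (black bar); red members were called higher, blue members lower and grey members were not called, and the numbers give called members of those tested. Lists with an asterisk were added after values were seen. Sterol synthesis and fatty acid synthesis stand at the top and the 3 secretory lists at the bottom, with medians from 1.93 to -0.5.

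Lipid genes split by direction of the pathway. Sterol synthesis genes rose in 16 of 17 cases with a median of 1.93, and they rank among the largest differences of the data. Genes that make and desaturate fatty acids shared the direction: 12 of 18 rose and 1 fell (0 without AI replicate 1, AI replicate 3 or VEH replicate 1), with a median of 0.43. Acss2, which makes acetyl-CoA from acetate, read 7.56, 7.37 and 7.24 in VEH and 10.27, 10.32 and 10.05 in AI (2.82, SE 0.097, adjusted p = 2.51e-11). Scd, the stearoyl-CoA desaturase, read 7.56, 7.82 and 7.97 in VEH and 10.42, 10.54 and 10.19 in AI (2.60, SE 0.166, adjusted p = 2.95e-08). Acly, which makes acetyl-CoA from citrate, gave 1.82, and the desaturase Fads1 gave 1.17.

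Fatty acid oxidation and targets of the PPAR receptors went the other way, with 11 falls among 24 (45.8% lower, against 11.0% of all genes, median -0.2). There were 2 rises (1 without AI replicate 1, AI replicate 2, AI replicate 3, VEH replicate 1 or VEH replicate 3). With 1 array left out 9 to 11 fell, and the methods' t-test gave 3 falls and 0 rises. Acot1, a cytosolic acyl-CoA thioesterase induced by PPAR alpha, read 7.70, 7.70 and 7.99 in VEH and 6.36, 6.23 and 6.15 in AI (-1.55, SE 0.122, adjusted p = 3.15e-07), and its mitochondrial relative Acot2, whose sequence is close enough to share probes, gave -0.77. Hadh, of the oxidation spiral, gave -0.71 and Slc25a20, the carnitine carrier, -0.60. For lipid storage and export, 5 of 22 fell and 2 rose (1 without AI replicate 1 or AI replicate 2). Plin2, which coats lipid droplets, gave -0.83, Abca1, which exports cholesterol, -0.79, and Mgll, a monoacylglycerol lipase, -0.62, while Soat1, which esterifies cholesterol, rose by 0.57. Of 13 genes of cholesterol sensing and uptake, 5 rose and 4 fell, with a median of 0.01. Insig1 (1.94), Stard4 (0.72) and Srebf2 (0.70) rose and Vldlr, a lipoprotein receptor, fell (-0.60).

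Steroid hormone genes beside Cyp17a1 included electron donors and sulfating enzymes. Of 23 genes of progesterone and androgen synthesis, Cyp17a1 among them, 9 rose and 4 fell (2 without AI replicate 1, AI replicate 3 or VEH replicate 2). Fdx1, which carries electrons to the side-chain cleavage enzyme, gave 1.18, and Cyb5a, which favours the lyase step of Cyp17a1, gave 0.61. Cyb5b, a mitochondrial cytochrome b5, gave 0.66. Of 10 genes of estrogen inactivation and sulfation, 2 rose, Cyp1b1 and the sulfotransferase Sult1a1 (0.88, adjusted p = 7.23e-06), and 0 fell (0 at an unadjusted p under 0.05 and 0 by the methods' t-test). Among 18 receptors and coregulators 2 rose (1 without AI replicate 1, AI replicate 2, AI replicate 3, VEH replicate 2 or VEH replicate 3) and 2 fell (1 without AI replicate 1, AI replicate 3, VEH replicate 2 or VEH replicate 3). Nr3c1, the glucocorticoid receptor, fell by 0.50 on the log2 scale (adjusted p = 0.00181). The 22 textbook estrogen-induced genes, mostly known from uterus and breast cells, had 4 rises (2 without AI replicate 1 or VEH replicate 3) and 4 falls, with Cited1, a transcriptional coactivator, at 1.15 and Rasgrp1, Vegfa (-0.47) and Ccnd1, cyclin D1 (-0.38), among the falls. For 19 luteal transcription factors there was 1 rise, Gata4 (lost without VEH replicate 1, VEH replicate 3 or AI replicate 2), and 1 fall, Sox4 (lost without VEH replicate 1, VEH replicate 2, AI replicate 1 or AI replicate 2), and the list's median was -0.01.

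Hormone and growth factor signalling genes moved in both directions. In the IGF system, 5 of 20 rose (3 without AI replicate 2 or VEH replicate 1) and 5 fell. Igfbp5, which binds IGFs, read 7.65, 7.62 and 7.70 in VEH and 8.97, 9.10 and 8.67 in AI (1.25, SE 0.092, adjusted p = 1.38e-07), and Pappa, a protease that cleaves IGF-binding proteins, rose by 0.87. Ghr, the growth hormone receptor, read 8.09, 8.12 and 8.04 in VEH and 6.88, 7.16 and 6.83 in AI (-1.13, SE 0.092, adjusted p = 4.22e-07), and Igf2r gave -0.60. Of 22 prolactin and LH signalling genes, 5 fell, with Adcy6, an adenylyl cyclase, at -0.77, Socs3, a feedback inhibitor, at -0.49, Stat5b at -0.45 and the prolactin receptor Prlr at -0.31, and 2 rose (0 without AI replicate 1, VEH replicate 2 or VEH replicate 3 and 1 without AI replicate 2, AI replicate 3 or VEH replicate 1). In PI3K, Akt and mTOR signalling 6 of 23 fell and 0 rose (2 at an unadjusted p under 0.05 and 0 by the methods' t-test, 1 without AI replicate 3, VEH replicate 1 or VEH replicate 3), with Rheb, the activator of mTOR, at -0.77 and Pik3cd at -0.44. Wnt5a, a WNT ligand, rose by 0.77 and Sfrp4, a secreted WNT inhibitor, by 0.81, while Fzd8, a receptor, fell by 0.52 on the log2 scale; of 35 genes of the pathway 6 rose (3 without VEH replicate 1 or VEH replicate 3) and 3 fell (1 without AI replicate 3 or VEH replicate 2). The EGF receptor ligand Tgfa rose by 0.52, and it was the one call among 14 genes of its family (2 without AI replicate 2). In the lower direction the family had 1 without VEH replicate 3.

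Genes of vessel growth that changed were lower in AI with 1 exception. Among 32 vascular signals and receptors, 15 fell (46.9%, against 11.0% of all genes, median -0.21) and 1 rose (2 without AI replicate 3). Of the 32, 9 lie among the brightest genes by mean signal, of which 25.8% fell. After the further quantile normalization 14 of the 32 fell and 3 rose. The methods' t-test gave 3 falls and 0 rises in this list. Pdgfd, a platelet-derived growth factor, read 8.40, 8.34 and 8.42 in VEH and 6.97, 7.03 and 7.03 in AI (-1.37, SE 0.071, adjusted p = 2.88e-09), a wide gap beside the spread within groups. Aplnr, the apelin receptor of growing vessels, gave -0.66, and Vegfa, the main endothelial growth factor, read 10.65, 10.70 and 10.60 in VEH and 10.26, 10.07 and 10.22 in AI (-0.47, SE 0.064, adjusted p = 7.64e-05). Fgf1, a fibroblast growth factor, was the member that rose (1.03, SE 0.123, adjusted p = 2.38e-05). Markers of endothelium moved with this list: 9 of 11 fell (10 at an unadjusted p under 0.05 and 0 by the methods' t-test), 0 rose (0 at an unadjusted p under 0.05 and 0 by the methods' t-test), and the mean of the markers lay at 8.67 in the 3 VEH arrays and between 8.13 and 8.36 in the AI arrays. Of the 11 endothelial markers, 8 lie among those brightest genes, of which 25.8% fell. After the further quantile normalization 9 of the 11 fell. Flt1, Kdr, Tek and Tie1 stand in both lists, and the part of the endothelial markers in the result was not tested. Tek gave -0.62, Flt1 -0.54, Tie1 -0.52 and Egfl7 -0.51.

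Amino acid metabolism held several of the largest falls. Bcat1, which transfers the amino group of branched-chain amino acids, read 10.81, 10.90 and 10.86 in VEH and 8.50, 8.69 and 8.31 in AI (-2.35, SE 0.08, adjusted p = 2.51e-11). Odc1, which makes putrescine from ornithine, read 11.20, 11.12 and 11.09 in VEH and 9.19, 9.31 and 9.23 in AI (-1.90, SE 0.06, adjusted p = 1.73e-11). Ass1, of the urea cycle and of arginine synthesis, read 11.31, 11.38 and 10.92 in VEH and 9.25, 9.31 and 9.93 in AI (-1.71, SE 0.166, adjusted p = 2.87e-06). The groups did not overlap in these genes, as the rule for naming the largest falls required. The list of 34 enzymes had 8 falls and 6 rises, among them Mthfd2, of mitochondrial folate metabolism (0.63). Other genes of polyamine synthesis and its control fell with Odc1, namely Srm, spermidine synthase (-0.78, against -0.19 on a second probe set), Azin1, which protects Odc1 protein from degradation (-0.57), Sat1, which acetylates polyamines (-0.35), and Oaz2, an antizyme (-0.34). That list of 15 genes, added later, had 5 falls and 0 rises (1 at an unadjusted p under 0.05 and 0 by the methods' t-test). Of 29 amino acid transporters 6 rose and 1 fell (0 without AI replicate 1, AI replicate 3 or VEH replicate 1). Slc3a2, the shared heavy chain, gave 0.81, and its partners Slc7a8 and Slc7a5 gave 0.71 and 0.30.

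Genes of the proton pump beside Atp6v0d2 were mixed. Of 23 subunits, Atp6v0d2 among them, 4 rose (2 without AI replicate 1 or AI replicate 2) and 4 fell, and the median was -0.05. Atp6v0e2 fell by 0.94 on the log2 scale, Atp6v1a by 0.63 on the log2 scale, and Atp6v0d1, the paralog of Atp6v0d2, by 0.37 on the log2 scale. Atp6v0d1 read 11.11, 11.20 and 11.08 in VEH and 10.69, 10.80 and 10.80 in AI. Lysosomal enzymes and membrane proteins had 11 falls and 3 rises among 30 (36.7% lower, against 11.0% of all genes). Of the 30, 24 lie in the brightest 25%, where 25.8% of genes fell. With 1 array left out 8 to 11 fell, and the methods' t-test gave 5 falls and 0 rises. The cathepsins Ctsl and Ctsh gave -1.05 and -0.71, the acid sphingomyelinase Smpd1 -0.61 and the acid ceramidase Asah1 -0.53. Rab GTPases, which direct vesicle traffic, had 12 falls and 2 rises (1 without AI replicate 3, VEH replicate 1 or VEH replicate 3) among 48. In the brightest 25%, where 25.8% of genes fell, lie 24 of these 48. Rab27a, of regulated secretion, read 8.70, 8.42 and 8.95 in VEH and 6.48, 6.55 and 6.58 in AI (-2.15, SE 0.135, adjusted p = 2.48e-08), and Rab33b and Rab4a gave -0.56 and -0.53.

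Proteins of the cell surface and matrix changed in both directions. Gpc1, a glypican that carries heparan sulfate, read 9.48, 9.60 and 9.69 in VEH and 7.73, 7.70 and 7.79 in AI (-1.85, SE 0.063, adjusted p = 2.51e-11). Gpc4 of the same family read 9.65, 9.45 and 9.43 in VEH and 11.03, 11.11 and 11.02 in AI and rose (1.54, SE 0.094, adjusted p = 1.84e-08), so the 2 glypicans moved in opposite directions. In the later list of 26 proteoglycan and sulfation genes 4 rose and 8 fell. Chst15, which sulfates chondroitin, gave -1.46, the syndecan Sdc2 -1.04 and Extl1 -1.01, whereas the sulfate transporter Slc26a2 rose by 0.78 and Papss1, the paralog of Papss2, fell by 0.39 on the log2 scale. Matrix proteases and inhibitors had 15 falls among 31 (48.4%, against 11.0% of all genes, median -0.25). With 1 array left out 10 to 14 fell, and the methods' t-test gave 5 falls and 0 rises. By limma 3 rose (0 without AI replicate 1 and 1 without VEH replicate 1 or VEH replicate 3). Htra1, a secreted protease, gave -1.64, the plasminogen activator Plat -0.62 and the inhibitor A2m -0.39. Collagens and laminins had 9 falls among 27 (33.3%) and 2 rises (4 without AI replicate 3), and the methods' t-test gave 0 of either. Col4a1 of the basement membrane gave -0.54 and Sparc -0.47. Of 35 adhesion genes 9 fell and 3 rose. Itga6, a laminin receptor, read 9.34, 9.24 and 9.32 in VEH and 7.89, 8.11 and 7.83 in AI (-1.35, adjusted p = 4.08e-08), and Jam2, a junctional adhesion molecule, read 9.90, 10.08 and 10.02 in VEH and 11.54, 11.65 and 11.53 in AI (1.58, adjusted p = 1.29e-10).

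Annexins, which bind calcium and membranes, included falls of -1.09 for Anxa5, -0.97 for Anxa4, -0.72 for Anxa1, -0.67 for Anxa6 and -0.58 for Anxa2. In that later list of 24 annexins and S100 proteins 7 fell and 1 rose (0 without AI replicate 2, VEH replicate 1 or VEH replicate 2). Among ion channels, Kcnq1 and Kcnq5, related potassium channels, moved in opposite directions. Kcnq1 read 8.67, 8.91 and 8.56 in VEH and 6.85, 6.81 and 6.71 in AI (-1.93, SE 0.08, adjusted p = 2.31e-10), and Kcnq5 read 6.81, 6.97 and 7.03 in VEH and 8.20, 8.28 and 8.08 in AI (1.25, SE 0.07, adjusted p = 6.59e-09). The list of 32 potassium channels had 6 falls, among them Kcnd2 (-0.91) and Kcnj2 (-0.79), and 1 rise (2 without AI replicate 2). Gabrg3 was the one call among 28 GABA, glutamate and glycine receptor genes (2 without AI replicate 3).

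Redox, iron and energy genes were mixed. Of 39 antioxidant and glutathione genes 10 rose and 7 fell. Mgst1, a glutathione transferase of ER and mitochondrial membranes, read 11.11, 11.19 and 11.20 in VEH and 9.48, 9.59 and 9.59 in AI (-1.61, SE 0.068, adjusted p = 2.71e-10). Hmox1, which degrades heme, read 6.03, 6.07 and 6.08 in VEH and 6.96, 7.03 and 6.88 in AI (0.89, SE 0.057, adjusted p = 2.89e-08). The transferrin receptor Tfrc, which imports iron, gave -1.19 and the ferritin heavy chain Fth1, which stores it, 0.46, and 4 of 25 iron and heme genes rose and 4 fell. In glycolysis and its branches, 7 of 37 rose and 6 fell (3 without AI replicate 3 or VEH replicate 2). Ldha, lactate dehydrogenase, gave -0.86 on the probe set used and -0.50 on another, and the muscle and platelet phosphofructokinases Pfkm and Pfkp gave -0.58 and 0.52. The respiratory chain had 8 falls (4 without AI replicate 1 and 5 without AI replicate 3) and 2 rises among 35, of which 30 lie in the brightest 25%, so its 22.9% lower is near the 25.8% of those bright genes.

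Clock and glucocorticoid-responsive genes, from lists added later, moved in both directions, with list medians of 0.02 and -0.04. Nr1d1, a repressor of the clock, read 9.02, 8.61 and 8.93 in VEH and 9.54, 9.68 and 9.45 in AI (0.71, SE 0.101, adjusted p = 0.000134), and Dbp, an output factor of the clock, read 10.05, 9.67 and 10.06 in VEH and 10.62, 10.70 and 10.54 in AI (0.69, SE 0.129, adjusted p = 0.00136). Nr1d2 and Tef gave 0.55 and 0.53, and the clock repressor Cry2 gave -0.55. Of the 18 genes 4 rose and 4 fell (2 without AI replicate 1, AI replicate 2, AI replicate 3 or VEH replicate 3), and no source used here states the hour of tissue collection. Fkbp5, a known target of glucocorticoid and androgen receptors, read 8.29, 8.29 and 8.18 in VEH and 9.15, 9.28 and 9.28 in AI. Of the 19 genes of its list 4 rose (2 without AI replicate 2) and 2 fell, among them Cdkn1a (-0.34).

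Immune genes gave single large falls, and the medians of their 4 lists lay between -0.06 and 0.05. Cd80, a costimulatory ligand of T cells, read 9.04, 8.77 and 8.70 in VEH and 6.10, 6.49 and 6.82 in AI (-2.37, SE 0.148, adjusted p = 2.35e-08). Of 17 MHC and costimulation genes 1 rose (0 without AI replicate 2 or VEH replicate 3 and 2 without VEH replicate 1) and 1 fell (4 without AI replicate 3). Interferon-stimulated genes had 0 calls among 24 by limma: of higher genes 0 at an unadjusted p under 0.05 and 0 by the methods' t-test, and of lower genes 1 at an unadjusted p under 0.05 and 1 by the methods' t-test and 1 without AI replicate 3. In complement, C6 fell and Masp1, a protease of the lectin pathway, gave -0.80 (adjusted p = 0.00625), and 2 of 17 rose (1 without AI replicate 3 and 4 without VEH replicate 1). Chemokines and cytokines had 6 falls, with Cxcl14 at -0.69, Ccl2, which attracts monocytes, at -0.47 and Il1rn, the interleukin-1 receptor antagonist, at -0.39, and 2 rises among 36 (1 without AI replicate 1, AI replicate 2 or VEH replicate 3 and 0 without AI replicate 3, VEH replicate 1 or VEH replicate 2).

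Several lists had few calls, beside 5.91% of all genes that rose and 11.0% that fell. Falls made up 13.5% of the apoptosis list and 12.8% of the list of S, G2 and M phase, near the share of all genes. Apoptosis genes had 1 rise and 5 falls among 37 (3 without AI replicate 1 or AI replicate 2), with Apaf1, which activates caspases, at -0.47, and with Xiap, a caspase inhibitor, at 0.40 on one probe set and -0.24 on another. Genes of S, G2 and M phase had 1 rise (2 without AI replicate 3) and 5 falls among 39 (3 without AI replicate 1, AI replicate 3 or VEH replicate 2 and 2 without VEH replicate 1), with Ccna2, a cyclin, at -0.37, the mitotic kinesin Kif11 at -0.29 and Tyms, thymidylate synthase, at 0.35. Immediate early genes had 3 rises (1 without AI replicate 1 or VEH replicate 2) and 1 fall (0 without AI replicate 1, AI replicate 2 or VEH replicate 3 and 3 without VEH replicate 2) among 28, with Jun at 0.47. Inhibin, activin, BMP and TGF-beta genes had 3 rises and 2 falls (1 without AI replicate 1, AI replicate 3, VEH replicate 1 or VEH replicate 2 and 4 without VEH replicate 3) among 33, and prostaglandin genes 3 and 2 of 22, with the prostaglandin transporter Slco2a1 at -0.71 and Hpgd, which inactivates prostaglandins, at 0.51. Among 17 milk and seminal vesicle proteins, Svs5 and Btn1a1 (0.40) rose (4 without VEH replicate 3) and the casein Csn1s1 fell (-0.80). Olfactory receptors, from a later list, had 1 rise among 53 (0 without AI replicate 2 or VEH replicate 1 and 2 without VEH replicate 3), 0 falls (1 at an unadjusted p under 0.05 and 0 by the methods' t-test, 1 without VEH replicate 1) and a median of 0.06.

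Markers of the cell types that a dissected CL can hold were read in the same way. Luteal cell markers had list means between 10.99 and 11.17 in VEH and between 11.13 and 11.26 in AI, and 3 of 8 rose (1 without AI replicate 1) and 2 fell. Smooth muscle and pericyte markers had 5 falls among 11 (3 without AI replicate 3 and 8 without VEH replicate 3; 8 at an unadjusted p under 0.05 and 0 by the methods' t-test) and 0 rises (0 at an unadjusted p under 0.05 and 0 by the methods' t-test), with list means between 8.83 and 9.1 in VEH and between 8.52 and 8.76 in AI. Macrophage markers had 4 rises among 14 (2 without AI replicate 3) and 0 falls (0 at an unadjusted p under 0.05 and 0 by the methods' t-test), with means between 7.76 and 7.89 in VEH and between 7.92 and 8.11 in AI. Fibroblast markers had 2 rises among 10 (1 without AI replicate 1, AI replicate 2 or VEH replicate 3 and 4 without AI replicate 3), one of them Dcn, a small proteoglycan of the matrix (0.50). Lymphocyte, neutrophil, follicle and red cell markers had 1 of 15, 1 of 12, 2 of 10 and 1 of 6 called. The lymphocyte list had 0 without AI replicate 1 and 2 without AI replicate 2 or AI replicate 3, and the follicle list held 1 in place of 2 without any 1 array, with means between 6.21 and 6.26 in VEH and between 6.35 and 6.43 in AI. Markers of periovarian fat (10 genes), oviduct epithelium (8) and placenta (11) had 0 calls by limma and by the t-test, and 1, 0 and 0 genes at an unadjusted p under 0.05. The list of periovarian fat had 1 fall without AI replicate 2. Their part in the results above was not tested.

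**Figure D5:**
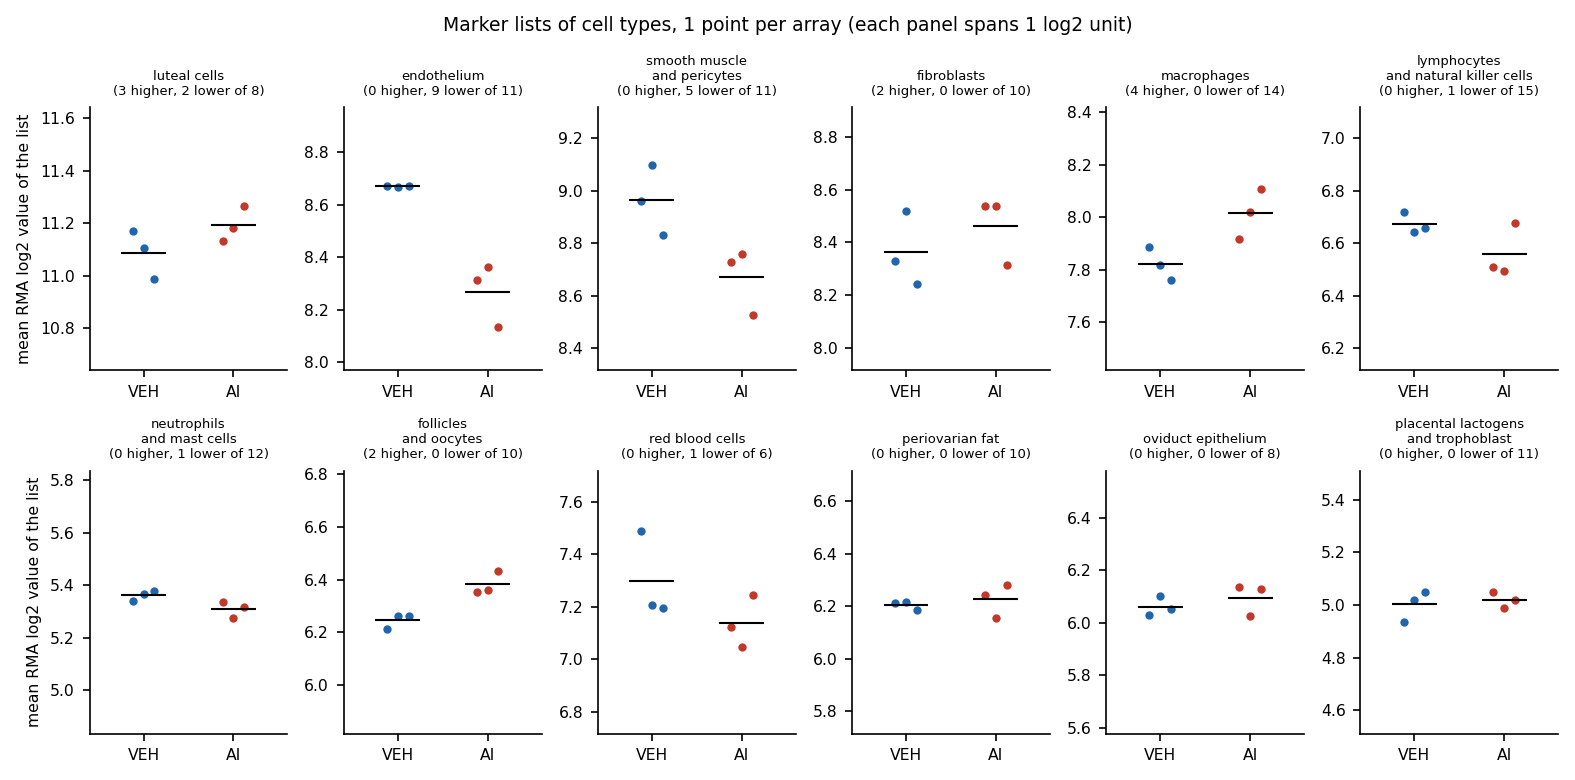
Mean RMA log2 value of each marker list (vertical axis, each panel spanning 1 log2 unit) in the 3 VEH and the 3 AI arrays, with a line at each group mean. The endothelial means lie at 8.67 in all 3 VEH arrays and at 8.36 or lower in the AI arrays, and the lists of fat, oviduct and placenta overlap between groups.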

How the data were processed

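Each array was hybridised with total RNA from the CL of 1 rat. The authors summarised and normalized the deposited log2 values by RMA in R 2.12.2, so raw probe intensities were not used here, and array number limits the precision. Of 29214 probe sets, 15310 had 1 gene symbol, 323 several and 13581 none. For 527 genes with more than 1 probe set, the study's probe set or else that of the highest mean was kept, which left 14509 genes. limma 3.58.1 (R 4.3.3) fitted the means of the 4 groups over all 12 arrays, and AI minus VEH was the contrast, with Benjamini-Hochberg adjusted p under 0.05 as the call. The study's methods used a t-test, which was run as an alternative. An exact permutation test of 3 against 3 arrays cannot go below a two-sided p of 0.1. Tested on simulated data with 14509 genes, this fit recovered 98.7% of changes of 1.5-fold, with 4.9% of calls false. The share of false calls among the genes called from the arrays was not tested.

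Genes were named as the 25 largest rises and the 25 largest falls with non-overlapping arrays, for each list the members of smallest p, at most 4, every called member of lists with at most 5, and Cyp19a1, Esr1, Esr2 and Pgr. Outside this rule, and after values had been seen, all called members of the 10 added lists could be named, as could genes of the promoter search and of overlaps between lists. Members and lists were chosen with earlier results of these data known, and 10 of the 65 lists were added after values had been seen. Alternatives were the AI and VEH arrays alone, leaving out each array, replicate number as a block, further quantile normalization, median centring, filters on the lower 25% and 50% of genes, the mean of probe sets, a trended robust fit and all probe sets. Figures were drawn with matplotlib 3.10.9.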

Additional observations from a re-analysis of the deposited data

Results flagged for a closer look

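Probe sets without a single gene symbol were outside the comparison of genes, and they carried signal too. Of 13901 such probe sets, 19 were at least 2-fold higher in AI and 91 at least 2-fold lower, both with adjusted p under 0.05 in limma, and 433 and 560 were called without regard to size. This was 7.14% of them, against 14.2% of named probe sets, and their median VEH value was 6.11 against 6.90. The 91 lower ones had a median VEH value of 8.46. Probe set 10813214 rose by 3.51 (SE 0.107, adjusted p = 1.46e-09 by limma), from 7.78 in VEH to 11.28 in AI, and 10916432 rose by 2.13. Probe sets 10886946 and 10886902 had differences of -2.44 and -2.35. Groups of 3 arrays are too small for a test of single outlying arrays.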

How the results depend on the processing

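Lower genes outnumbered higher ones in each alternative run, with and without a fold limit, except at 2-fold after further quantile normalization, with 77 higher and 73 lower. The methods' t-test after Benjamini-Hochberg adjustment called fewer genes, with 240 higher and 425 lower (665 in all against 2460), and 217 lower at 1.5-fold. Over all 29214 probe sets, 545 were lower at 1.5-fold and 180 at 2-fold (813 and 270 in both directions). Leaving out 1 array gave 598 to 788 genes higher and 1221 to 1578 lower, 162 to 199 and 308 to 416 at 1.5-fold, and 62 to 72 and 83 to 94 at 2-fold. Median centring gave 664 higher and 1716 lower, so that 27.9% of calls were higher. Same-numbered VEH and AI arrays deviated from their group means with correlations of -0.102, -0.154 and -0.102. Differently numbered ones gave -0.009 to 0.128, so arrays of the same number were not more alike. The fit with replicate number as a block gave 757 higher and 1472 lower. Of 286 called named genes, 39 lost the call without some 1 array, 140 lost it by the methods' t-test, and 0 changed sign in any alternative. The naming rule favours large differences and small p values, so these counts do not stand for all called genes. The causes were not tested. No detection calls or raw intensities were used, so how far dim genes lie above background is unknown.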
